A study of Mus musculus with 39 samples.

Results

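The annexins are proteins that bind membranes rich in acidic phospholipids when calcium rises, through a repeated core domain, and differ mainly in their N-terminal tails, which bind partner proteins. In the heart they are known for handling damaged membrane, vesicle traffic, the binding of phosphatidylserine on dying cells and the restraint of inflammation. The 9 genes described here are the rows of the count table that carry the symbols Anxa1, Anxa2, Anxa3, Anxa4, Anxa5, Anxa6, Anxa7, Anxa8 and Anxa11, out of 38293 genes. They were taken by symbol with no cutoff on their values, although earlier results of these data were known when the family was chosen. Of the remaining annexin genes, Anxa10 was at 0 counts in every library, and Anxa9 and Anxa13 together stayed between 0.641 and 3.47 CPM, the usual scaling of counts to a common library total.

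RNA was sequenced from the left ventricle of C57BL6/J mice in 39 libraries. Mutant mice carried R14del, the loss of codon 14 of Pln, the gene of phospholamban, a brake on the pump that returns calcium to the sarcoplasmic reticulum. Hearts without surgery were wild type or homozygous at 3 and at 5 weeks, with n = 4 in each of these groups, and wild type (n = 3), heterozygous (n = 4) or homozygous (n = 4) at 8 weeks. Male mice operated on at 12 weeks of age were sampled 3 days after ischemia-reperfusion, a temporary closure of a coronary artery (n = 4, 12 weeks old), or 8 weeks after infarction by permanent closure (n = 4, 20 weeks old). Their tissue lay away from the infarct, so it is no sample of the injured zone. Sham-operated mice formed 1 control group of 4, with 2 mice labelled 12 weeks and 2 labelled 20 weeks. Animals are not numbered in the labels, and p-values therefore reflect only how far these samples spread, in part perhaps technically.

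Depth ran from 9402904 to 19320791 counts per library. All 8 cardiomyocyte markers were detected in every group, with summed levels between 31953 and 89785 CPM. Pln had group means between 1980.3 CPM in homozygous hearts at 8 weeks and 6665 CPM in shams, and counts per gene do not show the deletion. At least 4 libraries stood apart from their groups by these measures. Replicate 1 of the homozygous hearts at 8 weeks had 15.5% mitochondrial counts against 8.27% to 10.6% in the other 3, and the lowest summed fibroblast, macrophage and lymphocyte markers of its group. Replicate 2 of the heterozygous hearts held 1761 CPM of fibroblast markers against 1111 to 1218 CPM in the other 3. Replicate 3 of the homozygous hearts at 3 weeks held 2830 CPM of fibroblast markers against 1663 to 1918 CPM, and replicate 4 after ischemia-reperfusion 5385 CPM against 2803 to 3730 CPM, with neutrophil markers of 54.8 CPM against 32.8 to 33.2 CPM. What leaving each of them out did to the members is given with the comparison it belongs to.

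The regions before the genes' starts are shown for 4 members that stand for the patterns described below, namely Anxa1 and Anxa2, which rose in most comparisons, Anxa8, whose change was largest at 8 weeks, and Anxa11, which fell or did not pass the test. Each line runs from 250 bases before to 50 bases after the start in RefSeq's annotation of GRCm38.p6, 5′ to 3′ on the gene's strand. Capitals mark matches to the AP-1 motif TGANTCA, the GC box GGGCGG or its complement CCGCCC, and the TATA motif TATAAA, which were searched on both strands, as was the E-box CACGTG. The windows are chr19:20390622-20390921 (minus strand) for Anxa1, chr9:69453433-69453732 (plus) for Anxa2, chr14:34085729-34086028 (plus) for Anxa8 and chr14:25841905-25842204 (plus) for Anxa11.
Anxa1: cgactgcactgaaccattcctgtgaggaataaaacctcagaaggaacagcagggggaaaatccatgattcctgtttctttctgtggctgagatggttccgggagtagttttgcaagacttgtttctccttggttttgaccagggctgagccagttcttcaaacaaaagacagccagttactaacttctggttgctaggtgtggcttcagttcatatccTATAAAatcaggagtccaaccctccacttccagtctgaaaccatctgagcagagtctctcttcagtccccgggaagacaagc
Anxa2: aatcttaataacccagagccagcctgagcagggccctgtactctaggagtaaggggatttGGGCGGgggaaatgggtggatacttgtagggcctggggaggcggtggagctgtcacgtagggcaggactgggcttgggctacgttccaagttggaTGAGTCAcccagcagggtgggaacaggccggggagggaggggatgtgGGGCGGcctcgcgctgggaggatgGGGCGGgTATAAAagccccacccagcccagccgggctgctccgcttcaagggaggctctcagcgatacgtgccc
Anxa8: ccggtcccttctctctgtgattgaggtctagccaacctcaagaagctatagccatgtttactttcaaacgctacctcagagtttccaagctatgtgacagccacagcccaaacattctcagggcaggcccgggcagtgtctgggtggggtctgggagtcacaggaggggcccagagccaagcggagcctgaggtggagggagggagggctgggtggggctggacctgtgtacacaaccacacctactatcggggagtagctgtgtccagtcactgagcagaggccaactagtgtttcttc
Anxa11: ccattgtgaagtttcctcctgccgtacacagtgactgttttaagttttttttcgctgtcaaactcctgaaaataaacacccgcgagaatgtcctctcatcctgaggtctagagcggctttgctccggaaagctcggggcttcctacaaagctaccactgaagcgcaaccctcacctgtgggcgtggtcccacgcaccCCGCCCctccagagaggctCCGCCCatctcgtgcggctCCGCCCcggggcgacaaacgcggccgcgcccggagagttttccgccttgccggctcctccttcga

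RefSeq entries matched 7 of the 9 members with 9 windows in all, since Anxa4 and Anxa7 have a pair each. Anxa3 and Anxa6 were not matched. The Anxa1 window held TATAAA with its first base at -32 from the start. The Anxa2 window held TGAGTCA at -95, GC boxes at -190, -48 and -24, and TATAAA at -17. The Anxa11 window held GC boxes at -53, -34 and -15, and the windows of Anxa8 and Anxa5 held none of the 4 motifs. Among the others, Anxa7 had GC boxes in both windows and CACGTG at -113 in 1, and 1 Anxa4 window had a GC box at 7 bases past the start. Of 32851 windows of this length in the table, 7.81% held TGANTCA, 35.7% a GC box, 13.6% TATAAA and 7.15% CACGTG. The GC boxes and the TATA motif of Anxa2 do not overlap. A match describes letters and is no evidence of binding.

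At 5 weeks 5 of the 9 annexins rose in homozygous R14del hearts and 1 fell, and at 8 weeks 7 rose and none fell. Anxa1 rose 2.16-fold at 5 weeks and 8.83-fold at 8 weeks. Anxa2, Anxa4, Anxa5 and Anxa7 rose at both ages, Anxa3 and Anxa8 passed the test at 8 weeks only, and Anxa6, the member with the highest level per length in wild type hearts, passed at neither age. Over all genes tested, 22.3% were called higher and 21.4% lower at 5 weeks, 43.7% in all, and 30.8% higher and 29% lower at 8 weeks, 59.8% in all. The members' median log2 change was 0.69 at 5 weeks and 1.11 at 8 weeks, against medians of all genes of -0.0012 and 0.022. In tissue RNA, more cells of a type and more RNA per cell cannot be told apart.

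Anxa1 (chr19:20373428-20390944, minus strand, GRCm38) encodes a protein that restrains neutrophil entry through formyl peptide receptors and is known as a target of glucocorticoids. At 5 weeks its level was 35.4, 32.7, 29.8 and 28.0 CPM in wild type and 79.8, 81.6, 64.5 and 88.3 CPM in homozygous libraries. At 8 weeks it was 22.0, 18.4 and 24.1 CPM in wild type and 134, 289, 260.1 and 174 CPM in homozygous libraries. The groups did not overlap at either age, and the homozygous library with the lowest level at 8 weeks was the one that stood apart. The log2 change was 1.11 ± 0.09 (SE) at 5 weeks (edgeR adjusted p = 1.18e-08, from its quasi-likelihood test with Benjamini-Hochberg adjustment over all genes) and 3.14 ± 0.25 at 8 weeks (edgeR adjusted p = 9.94e-07). Without that library the change at 8 weeks was 3.28 ± 0.22.

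Anxa2 (chr9:69453620-69491795, plus strand) forms a complex with S100a10 that binds plasminogen and its activator at the cell surface. Its levels at 5 weeks were 94.7, 104, 100.1 and 104 CPM in wild type and 224, 231, 175 and 241 CPM in homozygous libraries. At 8 weeks they were 73.6, 73.2 and 75.7 CPM in wild type and 180.1, 246, 209 and 358 CPM in homozygous libraries. Every homozygous library stood above every wild type library at both ages, and replicate 4 at 8 weeks stood highest. On the log2 scale it rose by 0.90 ± 0.08 at 5 weeks (edgeR adjusted p = 2.55e-08) and by 1.57 ± 0.20 at 8 weeks (edgeR adjusted p = 2.55e-05).

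Anxa5 (chr3:36448923-36475894, minus strand) encodes the phosphatidylserine-binding protein used as a stain for dying cells, and Anxa6 (chr11:54979108-55033445, minus strand) an annexin with a doubled core that is abundant in heart muscle. Anxa5 held 127, 140.2, 127 and 138 CPM in wild type and 260.0, 248, 219.5 and 265 CPM in homozygous libraries at 5 weeks. At 8 weeks it held 126, 108 and 120.1 CPM in wild type and 187, 201, 172 and 273 CPM in homozygous libraries. Neither pair of groups overlapped. The log2 changes were 0.69 ± 0.07 at 5 weeks (edgeR adjusted p = 1.06e-07) and 0.65 ± 0.15 at 8 weeks (edgeR adjusted p = 0.00255). Anxa6 held 256, 262 and 262 CPM in wild type and 213, 278, 279.9 and 267 CPM in homozygous libraries at 8 weeks, so that the groups overlapped. Its log2 change was -0.17 ± 0.08 (edgeR adjusted p = 0.087). At 5 weeks its levels of 231 to 242 CPM in wild type and 293 to 304 CPM in homozygous libraries did not overlap. The log2 change was nevertheless 0.11 ± 0.06 (edgeR adjusted p = 0.124), because TMM scaling, which equalises the bulk of genes between libraries, replaces the library total used for CPM. With scaling by library total alone the change was 0.32 (edgeR adjusted p = 0.000106), and under that scaling the median of all genes shifted to 0.21.

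Anxa4, Anxa7 and Anxa11 are known for roles in membrane traffic. Anxa4 (chr6:86736840-86793584, minus strand) is best known from epithelia, Anxa7 (chr14:20455260-20480133, minus strand) binds sorcin, a calcium sensor of muscle, and Anxa11 (chr14:25842156-25886804, plus strand) binds the calcium sensor encoded by Pdcd6 and links RNA granules to lysosomes. Anxa4 held 24.1, 25.8, 23.1 and 25.5 CPM in wild type and 69.9, 61.3, 45.6 and 54.3 CPM in homozygous libraries at 5 weeks. At 8 weeks it held 23.2, 23.6 and 25.4 CPM against 65.1, 76.0, 76.6 and 79.99 CPM. The wild type libraries lay close together at both ages and far below the homozygous ones. The log2 changes of Anxa4 were 1.02 ± 0.10 at 5 weeks (edgeR adjusted p = 2.14e-07) and 1.47 ± 0.12 at 8 weeks (edgeR adjusted p = 1.45e-06).

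Anxa7 held 96.5, 95.4, 92.5 and 88.1 CPM in wild type and 160.2, 168, 145 and 169 CPM in homozygous libraries at 5 weeks. At 8 weeks it held 85.3, 94.6 and 99.8 CPM against 184, 255, 229 and 238 CPM. No homozygous library reached down to a wild type one. Its log2 changes were 0.58 ± 0.06 at 5 weeks (edgeR adjusted p = 4.38e-07) and 1.11 ± 0.08 at 8 weeks (edgeR adjusted p = 6.81e-07).

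Anxa11 was the member that fell at 5 weeks, by 0.36 ± 0.07 on the log2 scale (edgeR adjusted p = 0.0004). Its levels were 53.9, 59.6, 55.5 and 56.8 CPM in wild type and 46.1, 52.6, 52.7 and 52.1 CPM in homozygous libraries, which did not overlap. That call ended with scaling by library total (log2 change -0.15, edgeR adjusted p = 0.0918). At 8 weeks its levels of 67.7, 70.1 and 57.7 CPM in wild type and 62.0, 71.97, 62.1 and 55.0 CPM in homozygous libraries overlapped. The log2 change was -0.22 ± 0.12 (edgeR adjusted p = 0.122), and -0.34 without wild type replicate 3 (edgeR adjusted p = 0.033). Exons of Anxa11 overlap those of Anxa11os, an antisense gene, over 113 bases. Exons of Anxa3, Anxa2 and Anxa4 likewise overlap those of other annotated genes over at most 112, 98 and 75 bases, and the strand setting of the counting is not given in the sources used here.

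Anxa8 (chr14:34085981-34100571, plus strand), which is best known from epithelia and some leukaemias, had the lowest counts of the 9. At 8 weeks its level was 0.87, 0.482 and 0.617 CPM in wild type libraries, from 8 to 16 counts each. In homozygous libraries it was 11.4, 10.2, 15.4 and 10.5 CPM, from 166 to 270 counts each. The groups lay far apart, and the library that stood apart in other respects held 11.4 CPM. On the log2 scale Anxa8 rose by 3.99 ± 0.38, or 15.9-fold (edgeR adjusted p = 3.06e-06), the largest of the members at this age. At 5 weeks the homozygous libraries held 1.99, 2.24, 1.02 and 0.984 CPM and the wild type libraries 0.561 to 1.17 CPM, with a log2 change of 0.75 ± 0.39 (edgeR adjusted p = 0.124).

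Anxa3 (chr5:96793339-96845966, plus strand), which is known from neutrophils and from vessel growth, held 24.9, 25.5 and 28.1 CPM in wild type and 46.9, 57.0, 56.4 and 59.8 CPM in homozygous libraries at 8 weeks. These did not overlap, and the log2 change was 0.91 ± 0.09 (edgeR adjusted p = 5.74e-06). At 5 weeks wild type libraries held 37.5 to 46.7 CPM and homozygous libraries 46.1 to 55.9 CPM, which overlapped, and the log2 change was 0.09 ± 0.08 (edgeR adjusted p = 0.414). Scaling by library total gave 0.30 at 5 weeks (edgeR adjusted p = 0.00976). All 7 calls at 8 weeks were also made without homozygous replicate 1, at log2 changes of 1.65 for Anxa2, 0.93 for Anxa3, 1.48 for Anxa4, 0.65 for Anxa5, 1.16 for Anxa7 and 3.96 for Anxa8.

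**Figure D1:**
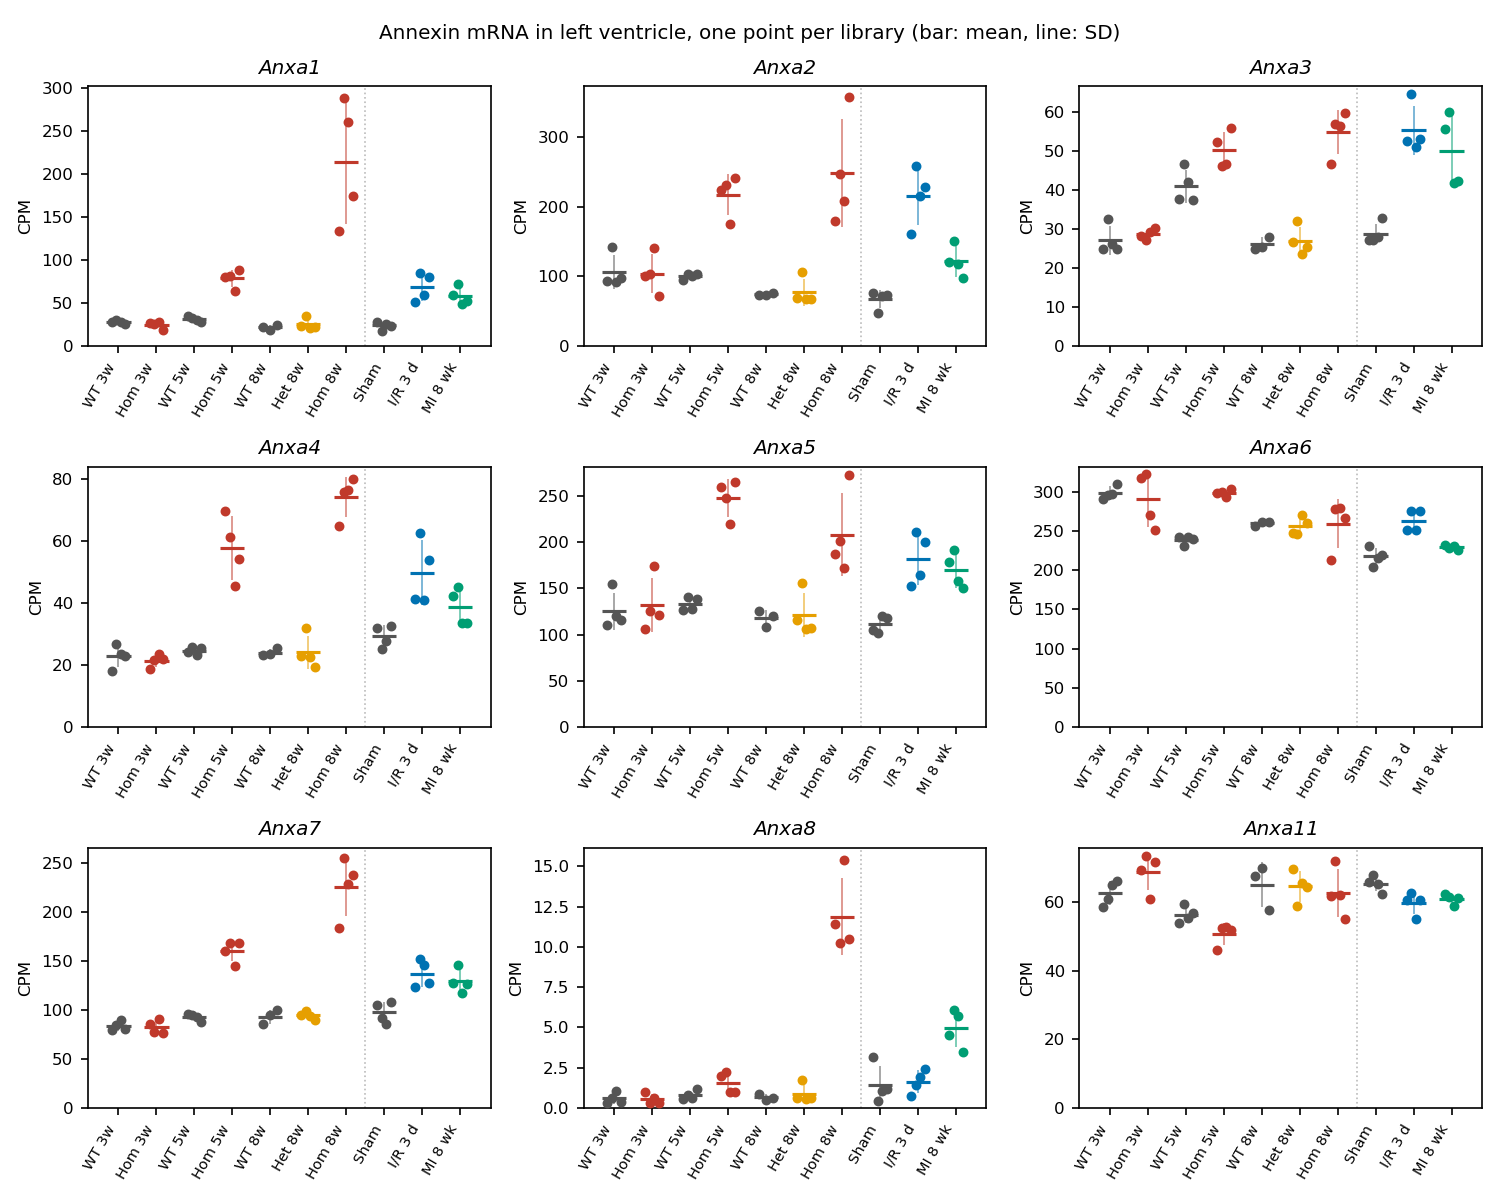
Level of each annexin gene in CPM (y axis, starting at 0) in every library of the 10 groups (x axis), with 1 point per library, a bar at the mean and a line of 1 SD each way. Homozygous libraries at 5 and 8 weeks lie above wild type for Anxa1, Anxa2, Anxa4, Anxa5 and Anxa7, and Anxa8 exceeds 10 CPM only in homozygous libraries at 8 weeks.

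At 3 weeks no annexin differed between homozygous and wild type hearts by the test, in which 0% of 13427 genes were called and 1515 had an unadjusted p under 0.05. None of the 8 members tested had an unadjusted p under 0.05. Anxa1 held 27.5, 29.8, 28.1 and 26.02 CPM in wild type and 26.2, 25.8, 27.3 and 18.4 CPM in homozygous libraries. Its log2 change of -0.22 ± 0.11 was the farthest from 0 among the members (edgeR adjusted p = 0.487), and the others ran from -0.12 to 0.11. Anxa2 held 93.5, 142, 91.4 and 98.3 CPM in wild type and 101, 103, 140.3 and 71.2 CPM in homozygous libraries. Those libraries overlapped widely, with 1 high library in each group, which in the homozygous hearts was replicate 3. Without it no member was called, and the log2 changes were -0.23 ± 0.16 for Anxa2 and -0.10 ± 0.11 for Anxa5, against 0.04 ± 0.14 for Anxa5 with it. Anxa8 did not pass the filter on low counts at this age, with 5 to 19 counts per library.

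Heterozygous hearts at 8 weeks gave no called member against wild type, with 0% of 14314 genes called and 326 at an unadjusted p under 0.05. The members' log2 changes ran from 0.0097 for Anxa6 to 0.41 for Anxa8, and each had an edgeR adjusted p of 1. Anxa1 held 23.3, 35.2, 21.1 and 21.7 CPM and Anxa2 held 68.2, 106, 66.9 and 67.2 CPM in heterozygous libraries. Replicate 2, which also held the most fibroblast markers, was the highest of its group for both. Without it the log2 changes were 0.08 ± 0.22 for Anxa1, -0.09 ± 0.17 for Anxa2 and -0.12 ± 0.34 for Anxa8, and no member was called.

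Homozygous hearts compared directly with heterozygous hearts at 8 weeks gave 7 members higher and none lower, where 61.9% of genes were called, 32% higher and 30% lower. This comparison shares its homozygous libraries with that against wild type. The log2 changes ran from 0.59 ± 0.14 for Anxa5 (edgeR adjusted p = 0.00267) to 3.58 ± 0.32 for Anxa8 (edgeR adjusted p = 1.49e-06), with 2.88 ± 0.22 for Anxa1 (edgeR adjusted p = 5.15e-07). Without heterozygous replicate 2 the change was 3.06 for Anxa1 and 4.11 for Anxa8, and without homozygous replicate 1 it was 3.02 and 3.55. Anxa6 at -0.18 ± 0.08 (edgeR adjusted p = 0.0532) and Anxa11 at -0.23 ± 0.11 (edgeR adjusted p = 0.0729) did not pass. Both passed as lower without heterozygous replicate 2, at an edgeR adjusted p of 0.0418 for Anxa6 and 0.0423 for Anxa11, and Anxa11 also passed without homozygous replicate 1 (edgeR adjusted p = 0.0431).

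The size of the genotype effect was compared between ages in 1 fit of all 39 libraries. The 5-week libraries carry another kind of name in the labels than those of 3 and 8 weeks. They held 9784771 to 11984580 counts each, against at least 13065153 at 3 and 8 weeks. Mitochondrial counts made up 19.9% to 21.1% in wild type at 5 weeks, and 13.5% to 16.5% in wild type at 3 and 8 weeks. Age and library set therefore cannot be told apart in these differences. From 3 to 5 weeks the effect on 6 members changed, where 20.4% of genes were called, 11.1% upward and 9.29% downward. The log2 difference of effects was 1.32 ± 0.25 for Anxa1 (edgeR adjusted p = 0.000226), 1.13 ± 0.18 for Anxa4 (edgeR adjusted p = 2.48e-05), 0.96 ± 0.24 for Anxa2 (edgeR adjusted p = 0.00436) and -0.48 ± 0.12 for Anxa11 (edgeR adjusted p = 0.00502). Anxa5 and Anxa7 also had a larger effect at 5 weeks. From 5 to 8 weeks the effect on 7 members changed, where 28.2% of genes were called, 14.4% upward and 13.8% downward. The difference was 3.26 ± 0.67 for Anxa8 (edgeR adjusted p = 0.000369), 2.06 ± 0.26 for Anxa1 (edgeR adjusted p = 3.48e-07), 0.84 ± 0.14 for Anxa3 (edgeR adjusted p = 2.73e-05) and 0.56 ± 0.11 for Anxa7 (edgeR adjusted p = 0.000159). The differences for Anxa2, Anxa4 and Anxa6 were close to the threshold. Leaving out 1 library reduced the count of 7 to between 4 and 6. It was 4 without wild type replicate 2 or homozygous replicate 3 of 5 weeks, and without wild type replicate 2 or 3 or homozygous replicate 4 of 8 weeks. Anxa5 had about the same effect at both ages, with a difference of -0.015 ± 0.18 (edgeR adjusted p = 0.966).

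**Figure D2:**
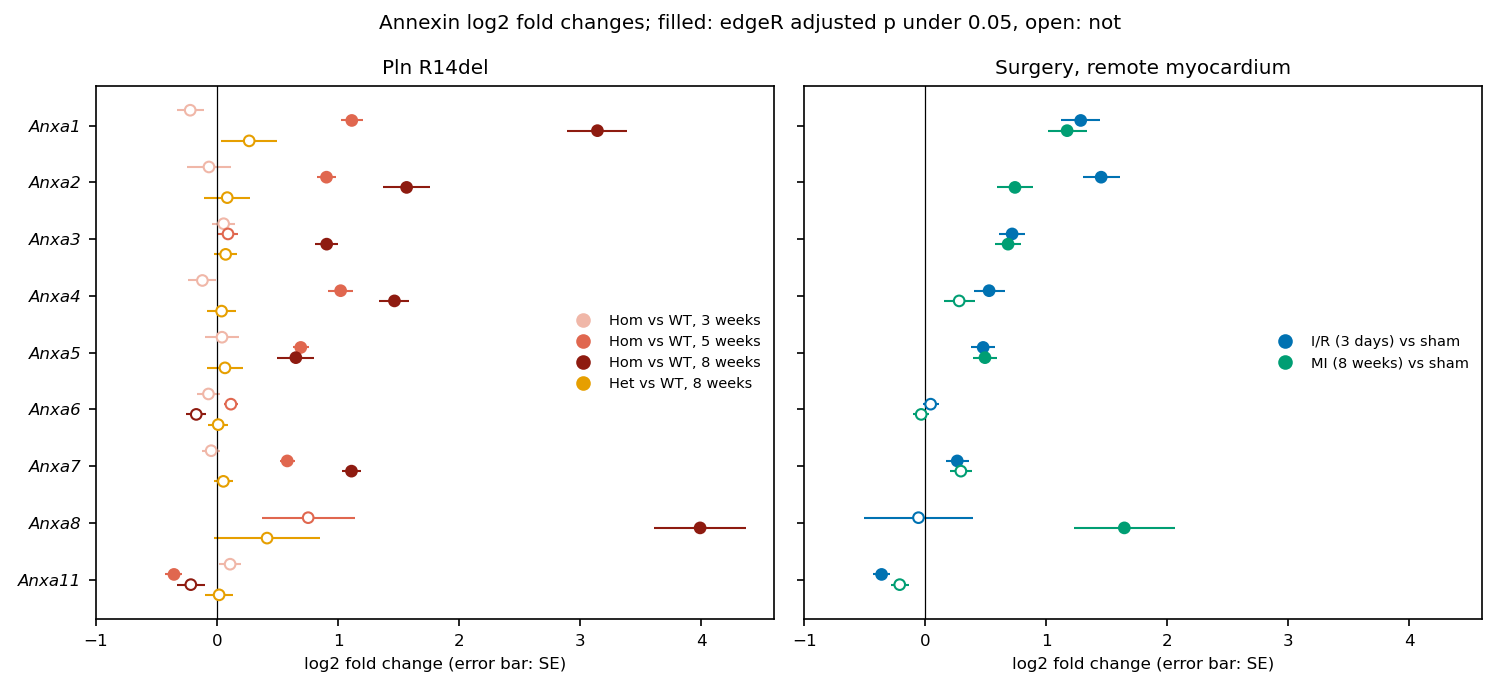
Log2 fold change (x axis) of each annexin (y axis) in the R14del comparisons (left) and the surgery comparisons (right), with SE as error bars and filled points where the edgeR adjusted p is under 0.05. Anxa1 moves from -0.22 at 3 weeks through 1.11 to 3.14 at 8 weeks, while Anxa6 stays between -0.17 and 0.11 in the comparisons plotted.

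Between 3 and 8 weeks in wild type hearts, Anxa2 and Anxa1 fell and none rose, where 16.2% of genes were called, 7.81% lower and 8.44% higher. Anxa2 went from 93.5, 142, 91.4 and 98.3 CPM at 3 weeks to 73.6, 73.2 and 75.7 CPM at 8 weeks, without overlap. It fell by 0.49 ± 0.11 on the log2 scale (edgeR adjusted p = 0.0047). Anxa1 fell by 0.35 ± 0.10 (edgeR adjusted p = 0.018), from 26.02 to 29.8 CPM down to 18.4 to 24.1 CPM. With all libraries in 1 fit neither passed, at an edgeR adjusted p of 0.0986 for Anxa2 and 0.279 for Anxa1. The call for Anxa1 also ended without wild type replicate 2 of 8 weeks (edgeR adjusted p = 0.122). Over the same ages 4 of 8 fibroblast markers fell, namely Col1a1, Col1a2, Lum and Dpt, and their list summed to 1740 to 2138 CPM at 3 weeks and 1173 to 1261 CPM at 8 weeks. Their part in the fall of Anxa1 and Anxa2 was not tested.

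In myocardium away from the infarct, 6 members rose and 1 fell 3 days after ischemia-reperfusion, and 5 rose 8 weeks after infarction. Over all genes tested, 31% were called after ischemia-reperfusion, 16.9% higher and 14.1% lower, and 11.4% after infarction, 6.62% higher and 4.77% lower. Anxa1, Anxa2, Anxa3 and Anxa5 rose in both, Anxa4 and Anxa7 passed after ischemia-reperfusion only, and Anxa8 after infarction only. The members' median log2 change was 0.48 after ischemia-reperfusion and 0.49 after infarction, against medians of all genes of -0.023 and -2.3e-05. Both comparisons use the same 4 shams. Without ischemia-reperfusion replicate 4, the library with the most fibroblast and neutrophil markers, the same count of 7 members was called, with log2 changes of 1.22 for Anxa1 and 1.44 for Anxa2.

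Anxa1 held 28.3, 17.8, 26.1 and 23.7 CPM in shams, 50.6, 84.3, 58.9 and 80.6 CPM after ischemia-reperfusion and 59.7, 72.7, 49.4 and 52.6 CPM after infarction. Every operated library lay above every sham, while the injured groups overlapped each other. The log2 change was 1.28 ± 0.16 after ischemia-reperfusion (edgeR adjusted p = 3.5e-05) and 1.17 ± 0.16 after infarction (edgeR adjusted p = 0.000543). Anxa2 held 76.3, 47.9, 72.3 and 72.7 CPM in shams, 160.3, 258, 215 and 229 CPM after ischemia-reperfusion and 120.0, 151, 117 and 98.2 CPM after infarction. These 3 groups did not overlap. Its log2 change was 1.45 ± 0.15 after ischemia-reperfusion (edgeR adjusted p = 7.69e-06) and 0.74 ± 0.15 after infarction (edgeR adjusted p = 0.00633).

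Anxa5 held 102 to 120.4 CPM in shams, 152, 211, 164 and 201 CPM after ischemia-reperfusion and 178, 191, 158 and 149.96 CPM after infarction. Both injured groups lay above the shams, at log2 changes of 0.48 ± 0.10 (edgeR adjusted p = 0.00231) and 0.49 ± 0.10 (edgeR adjusted p = 0.00677). The call after infarction ended with the 20-week shams alone (edgeR adjusted p = 0.0553). Anxa6 held 205 to 231 CPM in shams, 251 to 275 CPM after ischemia-reperfusion and 225 to 233 CPM after infarction. Its log2 changes were 0.05 ± 0.07 and -0.03 ± 0.07, at edgeR adjusted p-values of 0.658 and 0.801. Scaling by library total gave 0.27 after ischemia-reperfusion, with the median of all genes at 0.21 (edgeR adjusted p = 0.00702 for Anxa6).

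Anxa3 held 27.2, 27.2, 27.9 and 32.8 CPM in shams, 52.6, 64.7, 51.2 and 53.2 CPM after ischemia-reperfusion and 55.8, 60.2, 41.9 and 42.5 CPM after infarction. The shams lay below both injured groups. Its log2 change was 0.72 ± 0.11 after ischemia-reperfusion (edgeR adjusted p = 0.000182) and 0.68 ± 0.11 after infarction (edgeR adjusted p = 0.00148). Anxa8 held 3.14, 0.425, 1.05 and 1.19 CPM in shams, 0.731, 1.42, 1.92 and 2.42 CPM after ischemia-reperfusion and 4.51, 6.09, 5.68 and 3.50 CPM after infarction. The infarct group lay above the other 2, with 41 to 80 counts per library against 4 to 35 in shams, and sham replicate 1 stood near it. The log2 change after infarction was 1.65 ± 0.42 (edgeR adjusted p = 0.0215). That call ended without infarct replicate 2 or 3 or sham replicate 2, 3 or 4, at edgeR adjusted p-values from 0.0538 to 0.0657 and log2 changes from 1.38 to 1.56.

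Among the members with penta-EF-hand partners or vesicle roles, Anxa4 held 25.1 to 32.8 CPM in shams, 41.3, 62.7, 41.1 and 53.9 CPM after ischemia-reperfusion and 33.5 to 45.4 CPM after infarction. Neither injured group overlapped the shams. Its log2 change was 0.53 ± 0.13 after ischemia-reperfusion (edgeR adjusted p = 0.0056, and 0.0782 with the 12-week shams alone) and 0.28 ± 0.13 after infarction (edgeR adjusted p = 0.175). Anxa7 changed by 0.26 ± 0.09 (edgeR adjusted p = 0.0414) and 0.30 ± 0.09 (edgeR adjusted p = 0.0529). Its call after ischemia-reperfusion ended with the 12-week shams alone (edgeR adjusted p = 0.291), without ischemia-reperfusion replicate 2 (edgeR adjusted p = 0.127) or 3 (edgeR adjusted p = 0.119), and without sham replicate 1 (edgeR adjusted p = 0.0523), 2 (edgeR adjusted p = 0.0871) or 3 (edgeR adjusted p = 0.127). Anxa11 held 62.6 to 68.1 CPM in shams, 55.2 to 62.9 CPM after ischemia-reperfusion and 59.0 to 62.5 CPM after infarction. The ischemia-reperfusion libraries overlapped the shams by 1 library. On the TMM scale Anxa11 fell 3 days after reperfusion, by 0.36 ± 0.07 (edgeR adjusted p = 0.00172). Scaling by library total ended that call (edgeR adjusted p = 0.18). After infarction its log2 change was -0.21 ± 0.07 (edgeR adjusted p = 0.0757).

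Compared directly, ischemia-reperfusion at 3 days and infarction at 8 weeks differed for 2 members, where 20.1% of genes were called. Anxa2 was 1.64-fold higher after ischemia-reperfusion, or 0.71 ± 0.15 on the log2 scale (edgeR adjusted p = 0.00349). Of all genes 11.2% were higher by the test. Anxa8 was 3.25-fold lower, or -1.70 ± 0.41 on the log2 scale (edgeR adjusted p = 0.00795), where 8.84% of genes were lower by the test. For the other 7 the log2 changes ran from -0.15 for Anxa11 to 0.25 for Anxa4, and none passed. These groups differ in time after surgery, age and kind of injury at once, which cannot be told apart here.

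The homozygous effect at 8 weeks and the infarction effect differed for 5 members, where 37.4% of genes were called, 19.6% upward and 17.7% downward. The log2 difference was 2.37 ± 0.60 for Anxa8 (edgeR adjusted p = 0.00206), 1.998 ± 0.26 for Anxa1 (edgeR adjusted p = 3.13e-07), 1.21 ± 0.18 for Anxa4 (edgeR adjusted p = 3.41e-06), 0.85 ± 0.25 for Anxa2 (edgeR adjusted p = 0.00791) and 0.84 ± 0.11 for Anxa7 (edgeR adjusted p = 2.26e-07). Each of these was larger in the mutant. Anxa5 differed by 0.18 ± 0.18 (edgeR adjusted p = 0.456) and Anxa3 by 0.25 ± 0.14 (edgeR adjusted p = 0.17). The homozygous effect at 5 weeks and the ischemia-reperfusion effect differed for 1 member, Anxa3, at -0.63 ± 0.14 (edgeR adjusted p = 0.00427), where 6.5% of genes were called, 2.81% upward and 3.69% downward. Anxa3 had changed by 0.09 in the mutant at 5 weeks and by 0.72 after ischemia-reperfusion. The mutant and operated sets differ in age, surgery and kind of library name as well, which cannot be told apart here.

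Levels of different annexins were compared per kilobase of exon. In wild type hearts at 8 weeks Anxa6 led with 88.7 ± 1.14 CPM per kb (SD, n = 3), followed by Anxa5 with 66.4 ± 5.03 and Anxa2 with 19.9 ± 0.358 CPM per kb. Anxa11 with 15.8 ± 1.60 and Anxa7 with 15.6 ± 1.22 CPM per kb lay within their spread of each other, as did Anxa1 with 7.38 ± 0.990 and Anxa3 with 7.19 ± 0.467 CPM per kb. Anxa4 with 5.17 ± 0.254 and Anxa8 with 0.349 ± 0.105 CPM per kb came last. In homozygous hearts at 8 weeks the order was Anxa5 with 117 ± 25.1, Anxa6 with 88.5 ± 10.6, Anxa1 with 73.6 ± 24.9 and Anxa2 with 66.6 ± 20.9 CPM per kb (SD, n = 4), in which neighbours lay within their spread. Within each of these libraries, however, Anxa5 stood above Anxa6, at ratios from 1.012 to 1.69.

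The 9 members summed to 226 ± 4.44 CPM per kb in wild type and 436 ± 62.2 CPM per kb in homozygous hearts at 8 weeks, where replicate 1 held 351 and the other 3 held 431 to 492 CPM per kb. At 5 weeks the sums were 240.4 ± 4.51 and 393 ± 27.7 CPM per kb. Shams summed to 210.3 ± 13.0, ischemia-reperfusion to 338 ± 41.3 and infarction to 287 ± 25.7 CPM per kb. These levels use the library total rather than TMM. On that scale the median log2 change of all genes in homozygous hearts was 0.19 at 8 weeks and 0.21 at 5 weeks. It was 0.21 after ischemia-reperfusion and 0.11 after infarction. Under TMM these medians were 0.022, -0.0012, -0.023 and -2.3e-05 in the same order. The size of each rise therefore depends on the scaling, and the cause of the shift was not tested. Of the 8-week sum, Anxa1 made up 3.25% ± 0.378 in wild type and 16.8% ± 4.80 in homozygous hearts (13.1% in replicate 1 and 12.1% to 21.1% in the others), while Anxa6 made up 39.2% ± 1.09 and 20.4% ± 1.53. Ratios of Anxa5 to Anxa6, both per kb, lay between 0.681 and 0.809 in wild type and between 1.012 and 1.69 in homozygous libraries at 8 weeks. Among the operated mice the ratio was 0.754 to 0.919 in shams, 1.002 to 1.26 after ischemia-reperfusion and 1.10 to 1.38 after infarction. In every library of these injured and 8-week homozygous groups the ratio was higher than in any library of their wild type or sham controls. Heterozygous libraries at 8 weeks ranged from 0.645 to 1.05, with replicate 2 highest, and so overlapped the homozygous ones. At 3 weeks the ratio was 0.615 to 0.863 in wild type and 0.552 to 1.06 in homozygous libraries, with replicate 3 highest. At 5 weeks it was 0.862 to 0.9999 in wild type and 1.24 to 1.44 in homozygous libraries.

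**Figure D3:**
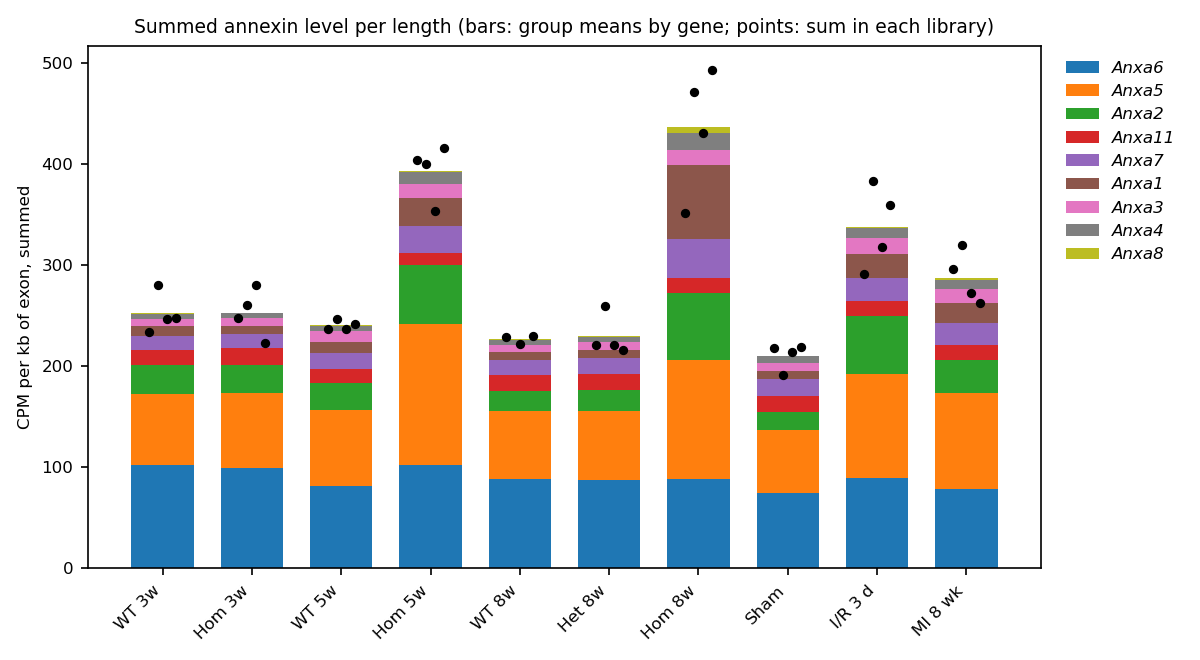
Summed level of the 9 annexins in CPM per kilobase of exon (y axis, starting at 0) for the 10 groups (x axis), with bars stacked by gene from group means and points for the sum in each library. The Anxa6 layer stays between 74.3 and 102 CPM per kb, while the sum rises from 226 to 436 CPM per kb between wild type and homozygous hearts at 8 weeks. Levels are scaled by library total, not by TMM.

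Within groups, single libraries were high or low for several members at once. Heterozygous replicate 2 at 8 weeks lay above its group mean for 6 of the 8 members other than Anxa8, with a median log2 deviation of 0.27. Ischemia-reperfusion replicate 2 lay above its mean for 8 of 8, with a median of 0.23, and ischemia-reperfusion replicate 1 for 1 of 8, with a median of -0.19. Replicate 4 of that group, which had the most fibroblast markers, lay above its mean for 5 of 8, with a median of 0.04. In the infarct group replicate 2 lay above its mean for 6 of 8. The activated fibroblast markers were summed in the same libraries, at 281 CPM in heterozygous replicate 2 against 78.7 to 116 CPM in the other 3, and at 267, 992, 574 and 828 CPM in ischemia-reperfusion replicates 1 to 4. The part of these cells in the members' levels was not tested.

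**Figure D4:**
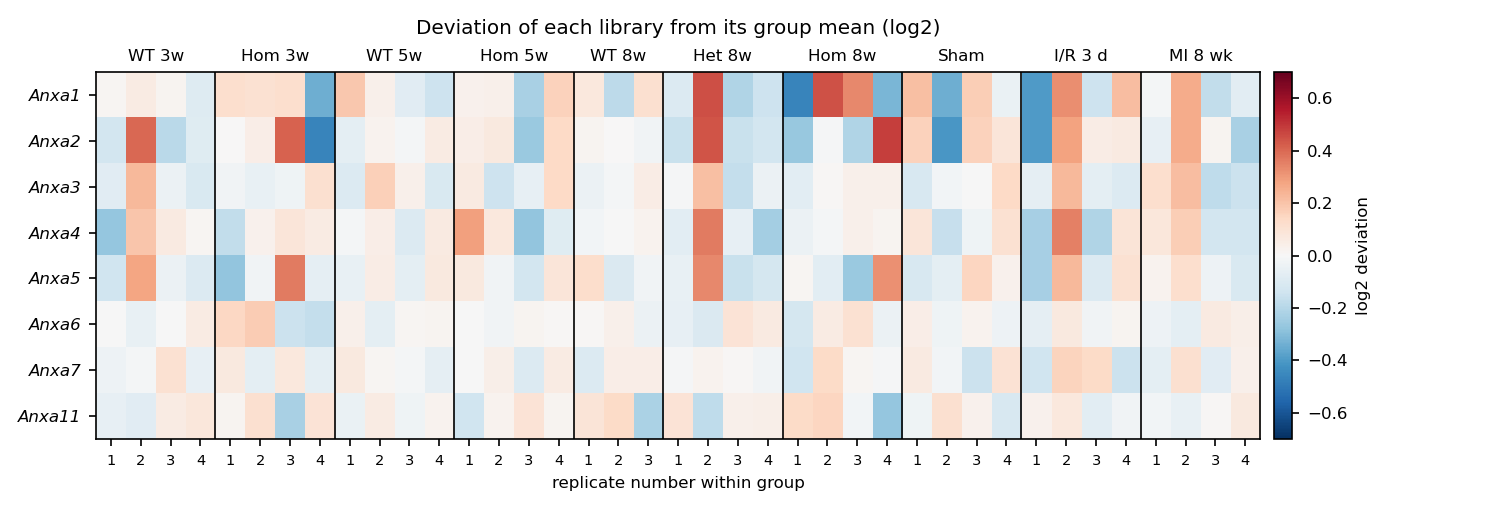
Deviation of each library (x axis, replicate numbers within group) from its group mean on the log2 scale (colour, red above and blue below) for the 8 annexins (y axis) other than Anxa8. Heterozygous replicate 2 and ischemia-reperfusion replicate 2 are red for most members, with median deviations of 0.27 and 0.23.

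Known partners of the annexins were followed as lists. The S100 proteins are small calcium sensors that bind annexin tails, and 5 of 6 rose in homozygous hearts at both 5 and 8 weeks, namely S100a6, S100a4, S100a10, S100a11 and S100b. Over all genes tested, 22.3% were called higher at 5 weeks and 30.8% at 8 weeks, and the same shares stand behind the counts of the other lists. The list's median log2 change was 0.80 at 5 weeks and 1.998 at 8 weeks. S100a6 went from 25.3 ± 1.23 CPM (SD, n = 3) in wild type to 155 ± 39.003 CPM (n = 4) in homozygous hearts at 8 weeks, a log2 change of 2.43 ± 0.21 (edgeR adjusted p = 1.78e-06). S100a4, known from fibroblasts and leukocytes, changed by 3.20 ± 0.31 (edgeR adjusted p = 3.63e-06). Each partner gene given with its test at 8 weeks was picked by its p in that comparison, with all libraries in. That each kept its direction and side of the threshold without homozygous replicate 1 is therefore little check of it. After ischemia-reperfusion 4 of the 6 rose and after infarction 3, where 16.9% and 6.62% of all genes were called higher. Among the 4 penta-EF-hand proteins, Sri, Pdcd6 and Pef1 rose and Gca fell at 8 weeks. Sri, which encodes sorcin, the partner of Anxa7, changed by 0.86 ± 0.09 (edgeR adjusted p = 5.91e-06), and by 0.05 ± 0.07 at 5 weeks (edgeR adjusted p = 0.535).

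Of 15 genes of membrane repair, 7 rose and 5 fell in homozygous hearts at 8 weeks, and the median log2 change was 0.17. Over all genes 30.8% rose and 29% fell, so that calls in both directions were common in the list as they were elsewhere. Myof, a relative of dysferlin, rose by 1.66 ± 0.13 (edgeR adjusted p = 9.97e-07), and Capn2, a calcium-activated protease, by 0.62 ± 0.08 (edgeR adjusted p = 2.55e-05). Trim72, the muscle protein that gathers vesicles at a wound, fell by 1.10 ± 0.15 on the log2 scale (edgeR adjusted p = 4.5e-05), from 488 ± 35.0 to 252 ± 43.4 CPM (SD, n = 3 and 4). Dysf, Cav3, Ehd2 and Vps4a also fell. At 5 weeks 3 of the 15 rose and 4 fell, where 22.3% of all genes were called higher and 21.4% lower. After ischemia-reperfusion 2 rose and 1 fell, where 16.9% of all genes were called higher and 14.1% lower. After infarction 2 rose, where 6.62% of all genes were called higher. On the TMM scale Trim72 fell 3 days after reperfusion, by 0.25 ± 0.08 (edgeR adjusted p = 0.0353). In CPM its mean was 329 ± 33.8 in that group and 333 ± 10.3 in shams (SD, n = 4 each). These means lay within their spread of each other. In the infarct group Trim72 rose by 0.29 ± 0.08 on the log2 scale (edgeR adjusted p = 0.0348), with a mean of 441 ± 26.8 CPM (SD, n = 4).

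Annexin A1 is known to act through formyl peptide receptors and on eicosanoid synthesis. None of the receptor genes Fpr1, Fpr2 and Fpr3 passed the filter on low counts at 8 weeks, and Fpr3 was at 0 in every group. Of the 5 eicosanoid enzyme genes 4 rose and Alox5 fell, against 30.8% and 29% of all genes. Alox5ap, the activating protein of 5-lipoxygenase, rose by 2.14 ± 0.17 (edgeR adjusted p = 8.83e-07) and Pla2g4a, a cytosolic phospholipase, by 1.44 ± 0.17 (edgeR adjusted p = 1.84e-05), while Alox5 itself fell by 1.41 ± 0.21 (edgeR adjusted p = 8.44e-05). After ischemia-reperfusion Alox5ap rose 4.02-fold, or 2.01 ± 0.16 on the log2 scale (edgeR adjusted p = 1.05e-06), and after infarction its log2 change was 0.24 ± 0.17 (edgeR adjusted p = 0.413). Genes of plasminogen activation, the system bound by Anxa2 with S100a10, were tested in 6 cases, of which 5 rose at 5 weeks and 4 at 8 weeks, with none lower, against 22.3% and 30.8% of all genes called higher. Serpine2, a protease inhibitor, rose by 2.26 ± 0.16 (edgeR adjusted p = 5.34e-07) and Plat, tissue plasminogen activator, by 1.19 ± 0.10 at 8 weeks (edgeR adjusted p = 1.83e-06).

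Genes of phosphatidylserine exposure and of the uptake of dying cells, where Anxa5 binds, rose in 8 of 11 cases at 8 weeks, against 30.8% of all genes, and Timd4 fell. Axl, a receptor kinase for dying cells, rose by 1.51 ± 0.11 (edgeR adjusted p = 6.92e-07), and the scavenger receptor Stab1 by 1.07 ± 0.09 (edgeR adjusted p = 1.13e-06). After ischemia-reperfusion 6 of 11 rose and after infarction 5, against 16.9% and 6.62% of all genes. No gene of these lists was called at 3 weeks or in heterozygous hearts.

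Markers of several other cells differed between the same groups, some upward and some downward. Macrophage markers (10 genes) summed to 447 to 581 CPM in wild type and 1536 to 3033 CPM in homozygous hearts at 8 weeks, 487 to 527 and 2028 to 2635 CPM at 5 weeks, 294 to 525 CPM in shams, 1275 to 2078 CPM after ischemia-reperfusion and 497 to 746 CPM after infarction. Of the 10, 10 rose at 8 weeks, 9 at 5 weeks, 9 after ischemia-reperfusion and 2 after infarction. The shares of all genes called higher were 30.8%, 22.3%, 16.9% and 6.62% in the same order. Fibroblast markers (8 genes) summed to 1173 to 1261 CPM in wild type and 4462 to 7870 CPM in homozygous hearts at 8 weeks, and all 8 rose. They held 975 to 1428 CPM in shams, 2803 to 5385 CPM after ischemia-reperfusion and 1695 to 2776 CPM after infarction. Activated fibroblast markers (5 genes) summed to 89.0 to 109 CPM in wild type and 1994 to 3186 CPM in homozygous hearts at 8 weeks. They were 68.1 to 159 CPM in shams, 267 to 992 CPM after ischemia-reperfusion and 580 to 1515 CPM after infarction. Lymphocyte markers (7 genes) summed to 1.99 to 3.10 CPM in wild type hearts at 8 weeks. In homozygous hearts of that age they were 1.98 CPM in replicate 1 and 16.1 to 25.4 CPM in the other libraries. No macrophage or fibroblast marker was at 0 in any group.

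Neutrophil markers (6 genes) summed to 3.403 to 8.42 CPM in shams and 32.8 to 54.8 CPM after ischemia-reperfusion, and to 2.01 to 3.01 CPM in wild type and 7.01 to 14.3 CPM in homozygous hearts at 8 weeks. Mesothelial markers (6 genes), from the epithelial layer that covers the heart, summed to 4.89 to 8.30 CPM in wild type, where Upk1b was at 0, and 11.1 to 27.2 CPM in homozygous hearts at 8 weeks. They were 6.59 to 31.1 CPM in shams, with the highest sum in sham replicate 1, and 11.9 to 28.2 CPM after ischemia-reperfusion. After infarction they were 69.1 CPM in replicate 1 and 11.1 to 30.0 CPM in the other libraries. At 5 weeks the mesothelial sums were 8.93 to 12.7 CPM in wild type and 7.46 to 10.7 CPM in homozygous hearts, and Wt1 fell. Endothelial markers (7 genes) all fell at 5 weeks, from sums of 1487 to 1635 CPM down to 1007 to 1104 CPM, and at 8 weeks 5 fell and 2 rose. Of 7 smooth muscle and pericyte markers 6 fell at 5 weeks, and 3 fell and 1 rose at 8 weeks. Of all genes tested, 21.4% were called lower at 5 weeks, and 29% lower and 30.8% higher at 8 weeks. Cardiomyocyte markers summed to 75526 to 79157 CPM in wild type and 31953 to 47403 CPM in homozygous hearts at 8 weeks. The part of any of these cells in the annexin levels was not tested.

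The genes most like each member were found by Pearson's r of group means of log2(TMM CPM + 1) over the 10 groups, among 8924 genes with a mean of at least 10 CPM. This describes group patterns, which share libraries and the changes described above. Anxa1 was closest to Crip1 (r = 0.99) and then to Olfml3, Anxa2 to Col5a2 (r = 0.99), and Anxa5 to Vcan (r = 0.98). Anxa4 was closest to Serpina3n (r = 0.99) and Anxa7 to Chmp3 (r = 0.997), and both had Adam9 among their nearest 3. Anxa3 was closest to Kif3a (r = 0.99), Anxa6 to Lypla2 (r = 0.96) and Anxa11 to Asb8 (r = 0.96). An r over 0.9 was reached by 332 genes for Anxa1 and 307 for Anxa4, against 39 for Anxa3, 56 for Anxa6 and 51 for Anxa11. Anxa8 was left out because it did not pass the filter on low counts at 3 weeks.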

How the data were processed

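Left ventricular RNA of 39 libraries was prepared with a stranded TruSeq mRNA kit after Trizol extraction, per the labels' protocols. Per the submitters' processing notes, STAR 2.7.3a was used with the mm10 build, and featureCounts (Subread 2.0.0) for the gene table. The authors deposited raw counts, 1 whole number for each gene and library. Neither strand setting nor annotation release is given in the sources used here. Gene symbols, positions and exon lengths were taken from the GENCODE vM21 annotation of GRCm38. It gave a symbol to 36345 of 38293 IDs, and IDs without a symbol held 0.133% of counts.

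Groups came from the labels. Each fit held the groups of 1 age, the surgery set or, for differences of effects, all 39 libraries. Counts were scaled by TMM, filtered with filterByExpr and fitted in edgeR 4.0.16 (R 4.3.3), whose quasi-likelihood test was used with Benjamini-Hochberg adjustment over all genes tested and a threshold of 0.05. Standard errors are the absolute log2 change divided by the square root of F. CPM are counts over the library total. Depth was 9402904 to 19320791 counts per library, and no 2 replicates held identical counts among 57 pairs. Alternatives were DESeq2 1.42.0, limma-voom (limma 3.58.1) with quality weights, other scalings and filters, all libraries in 1 fit, age-matched shams, a replicate block and each library left out in turn.

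The members, the gene lists and the rule for named genes were chosen with earlier results of these data known. The rule takes all 9 members, and from each list the 2 genes with the smallest p at 8 weeks among those with a group mean of at least 5 CPM, plus 1 that moved the other way. Other list genes are named only by their direction, after their values were seen.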

Additional observations from a re-analysis of the deposited data

Results flagged for a closer look

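Among 81 sets of values (9 members in the 9 groups of 4 libraries), 9 held a library far from the other 3, and chance marks about 1 in 20 such sets. Heterozygous replicate 2 at 8 weeks was the highest for Anxa1 (35.2 CPM), Anxa2 (106 CPM) and Anxa8 (1.74 CPM). Wild type replicate 2 at 3 weeks was the highest for Anxa2 (142 CPM) and Anxa3 (32.6 CPM). Ischemia-reperfusion replicate 2 was the highest for Anxa3 (64.7 CPM). In shams, replicate 2 was the lowest for Anxa2 (47.9 CPM) and replicate 4 the highest for Anxa3 (32.8 CPM). Homozygous replicate 1 at 5 weeks was the lowest for Anxa11 (46.1 CPM).

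Of 36 differences of effects tested (9 members, 4 differences), 19 passed an edgeR adjusted p of 0.05. From 3 to 5 weeks the genotype effect on the log2 scale differed by 1.32 for Anxa1, 0.96 for Anxa2, 1.13 for Anxa4, 0.64 for Anxa5, 0.62 for Anxa7 and -0.48 for Anxa11. From 5 to 8 weeks it differed by 2.06 for Anxa1, 0.69 for Anxa2, 0.84 for Anxa3, 0.47 for Anxa4, -0.26 for Anxa6, 0.56 for Anxa7 and 3.26 for Anxa8. Between the homozygous effect at 8 weeks and the infarction effect it was 1.998 for Anxa1, 0.85 for Anxa2, 1.21 for Anxa4, 0.84 for Anxa7 and 2.37 for Anxa8. Between the homozygous effect at 5 weeks and the ischemia-reperfusion effect it was -0.63 for Anxa3. In the differences between ages, age and library set cannot be told apart.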

How the results depend on the processing

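Of the members' values under the other settings, 799 kept their direction and side of the threshold, 24 newly passed it, 12 no longer did and 15 changed sign. With a library left out these counts were 1061, 10, 42 and 58. None of the values that changed sign passed the threshold. Genes called at 3 weeks went from 0 to 118 with DESeq2, 25 without a filter on low counts and 40 with all libraries in 1 fit. The members whose 5-week and ischemia-reperfusion effects differed were 2 with DESeq2 and 2 with limma-voom, and those differing between ischemia-reperfusion and infarction were 1 with the stricter filter. With all libraries in 1 fit, wild type hearts at 8 against 3 weeks gave 1254 genes and 0 members. Age-matched shams gave 2174 genes after ischemia-reperfusion and 853 after infarction. The replicate block, for numbers that do not pair the samples, left 0, 6 and 7 members called at 3, 5 and 8 weeks. Scaling by library total moved the split of calls from 2969 higher and 2852 lower to 5388 and 1411 at 5 weeks, from 4404 and 4149 to 5403 and 3086 at 8 weeks, from 2301 and 1921 to 4189 and 431 after ischemia-reperfusion, and from 901 and 649 to 1406 and 317 after infarction. The cause was not tested.

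Signs changed as follows on the log2 scale. With limma-voom, heterozygous hearts gave -0.049 for Anxa4, -0.026 for Anxa2 and -0.0015 for Anxa5, and ischemia-reperfusion 0.23 for Anxa8. With library totals, heterozygous hearts gave -0.012 for Anxa11 and -0.022 for Anxa6, and homozygous against heterozygous 0.019 for Anxa6. The same scaling gave 0.17 for Anxa8 after ischemia-reperfusion, and 0.027 for Alox5 and 0.075 for Anxa6 after infarction. It gave 0.086 for Anxa7 and 0.10 for Anxa5 between ischemia-reperfusion and infarction, and -0.021 for Anxa11 for 5 weeks less ischemia-reperfusion. Without a filter Anxa11 gave -0.018 for 8 weeks less infarction and -0.0038 for 5 weeks less ischemia-reperfusion, and with the stricter filter -0.011 for the latter.

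With 1 library left out, genes called ranged from 0 to 4 at 3 weeks (4 without homozygous replicate 2), from 663 to 1570 after infarction (663 without infarct replicate 2, 789 without sham replicate 2 and 957 without infarct replicate 1), from 1350 to 2162 for wild type at 8 against 3 weeks (1350 without replicate 2 of 8 weeks) and from 644 to 978 for 5 weeks less ischemia-reperfusion (644 without wild type replicate 2). Members called ranged from 1 to 3 for the wild type ages, 4 to 6 for 8 less 5 weeks and 1 to 3 for 5 weeks less ischemia-reperfusion. At 3 weeks Anxa2 ranged from -0.23 to 0.090 and Anxa5 from -0.10 to 0.15. In heterozygous hearts the ranges were -0.11 to 0.12 for Anxa4, -0.011 to 0.13 for Anxa3, -0.084 to 0.082 for Anxa11, -0.12 to 0.70 for Anxa8, -0.095 to 0.14 for Anxa2, -0.066 to 0.13 for Anxa5 and -0.021 to 0.039 for Anxa6. After ischemia-reperfusion Anxa8 ranged from -0.32 to 0.61, and after infarction Alox5 from -0.15 to 0.015. Ischemia-reperfusion against infarction gave -0.050 to 0.11 for Anxa3, -0.0037 to 0.23 for Anxa1, -0.085 to 0.020 for Anxa7 and -0.095 to 0.058 for Anxa5. Between wild type ages the ranges were -0.062 to 0.052 for Anxa3, -0.13 to 0.57 for Anxa8 and -0.12 to 0.040 for Anxa5. Differences of effects ranged from -0.079 to 0.067 for Anxa3 (5 less 3 weeks), -0.13 to 0.078 for Anxa5 (8 less 5 weeks), -0.052 to 0.045 for Anxa11 (5 weeks less ischemia-reperfusion) and -0.11 to 0.070 for Anxa11 (8 weeks less infarction). Depth limits Anxa8 most, which had 4 to 38 counts per library outside the homozygous hearts at 8 weeks and the infarct group.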
